A study of Porolithon cf. onkodes and Sporolithon durum with 38 samples.

Results

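The 200 most abundant transcripts of *Porolithon* cf. *onkodes* under control conditions were examined across the 4 treatments of a 3-month aquarium experiment. They were 200 of 118126 transcripts (0.169%), and 0.683% of the 29276 transcripts with enough counts to be tested. Each transcript's count was divided by the total count of its library and scaled to CPM (counts per 1e6 counts), transcripts were ranked by their mean CPM in the 4 control libraries, and the first 200 were taken. Of the transcripts that the study had already described in its tables of pathway proteins and of qPCR targets, 61 were left out beforehand, and 1 of these, ferritin-3, would have ranked 26th with 3769 ± 1989 CPM (SD, n = 4). The transcripts were thus chosen by their measured CPM in the control libraries, and those levels are given as a description.

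A total of 17 libraries of *P. onkodes* pigmented tissue were used, each from 1 fragment of the alga kept for 3 months under 1 of 4 treatments. The T + pH treatment (n = 5, libraries PO6, PO7, PO12, PO15 and PO19) combined 29.5 °C with pH 7.7 and a pCO2 of 1000 µatm. The T treatment (n = 4, PO1, PO2, PO8 and PO18) had 29.5 °C at pH 8.0 and 450 µatm, and the pH treatment (n = 4, PO3, PO5, PO11 and PO14) had 27.2 °C at pH 7.7 and 1000 µatm. The control (n = 4, PO4, PO10, PO16 and PO17) had 27.2 °C at pH 8.0 and 450 µatm. Libraries were made by CEL-Seq2, which tags the 3′ end of each polyadenylated RNA with a unique molecular identifier (UMI), so that CPM are not divided by transcript length. The fragments had been cleaned of epiphytes, but RNA of other organisms on the thallus cannot be told apart from that of the alga in these counts, and neither can less RNA per cell and fewer cells.

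Crustose coralline algae are red algae that deposit calcite in their cell walls and bind reef rubble together. They fix carbon with red-algal plastids and store it as floridean starch, an alpha-glucan kept in the cytosol. In photosynthetic cells the most abundant messages commonly encode proteins of photosynthesis, carbon metabolism and the ribosome. For the present 200 transcripts the sources used here gave a protein name for 4, so that the others are known by their Trinity identifiers only. Trinity, the program that assembled the transcriptome, writes isoforms of 1 inferred gene as names that differ after the last _i.

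Total counts ranged from 78142 in PO19 (T + pH) to 3012292 in PO15 (T + pH), with a median of 532955. PO19 stood apart in many of the measures below, and the main results that rest on it are also given without it. PO19 is not listed in the study's sequencing table, from which libraries with few reads and poor mapping had been dropped, and the total of PO12 differs from the one there, and the counts of both were matched to the T + pH labels by library name alone. All 200 transcripts had counts in 16 of the 17 libraries, and PO19 lacked 1 of them.

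Mean levels in the control were 10296 CPM for the first transcript, with a median of 1104 CPM and 607 CPM for the last. The last 3 transcripts inside the threshold were DN71597_c0_g2_i1 (618 ± 59.9 CPM), DN74849_c1_g1_i4 (609.5 ± 98.8 CPM) and DN74873_c3_g1_i2 (607 ± 330.3 CPM). The first 3 outside were DN71378_c0_g2_i2 (606 ± 412 CPM), DN76272_c3_g1_i1 (605 ± 253 CPM) and DN69303_c2_g1_i2 (604 ± 269 CPM; SD, n = 4 each). The step across the threshold was thus smaller than the spread between control libraries on either side of it.

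The 200 transcripts took between 24.5% (PO15, T + pH) and 66.9% (PO19, T + pH) of a library's counts, with a median of 37.2% over the 17 libraries. In T + pH their share was 29.6%, 37.4%, 31.8%, 24.5% and 66.9% in PO6, PO7, PO12, PO15 and PO19. In T it was 35.6%, 26.3%, 32.6% and 43.8% in PO1, PO2, PO8 and PO18. Libraries of the pH treatment held 39.6%, 35.9%, 42.0% and 56.1% in PO3, PO5, PO11 and PO14. Control libraries held 41.5%, 27.9%, 48.2% and 37.2% in PO4, PO10, PO16 and PO17. The ranges of the 4 treatments overlapped, and the medians were 31.8% in T + pH (30.7% without PO19), 34.1% in T, 40.8% in pH and 39.3% in the control.

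The share moved with library size. The 4 libraries with most counts (1530097 or more) held 24.5% to 29.6%, the 4 with fewest (191000 or fewer) held 42.0% to 66.9%, and the 9 between them held 31.8% to 48.2%. Each of these sets mixed treatments. A molecule is lost from the count when it carries a UMI already seen for that transcript. No count in either species' table passed 16384, the number of UMIs of 7 bases, and 18 transcripts in PO2, 16 in PO10, 15 in PO15 and 7 in PO6 exceeded 8192 counts, against at most 2 in any other library. With counts corrected for shared UMIs of that length, the share ranged from 28.5% to 68.3%. It was then 28.5% to 33.3% in the 4 libraries with most counts and 42.6% to 68.3% in the 4 with fewest. Whether the deposited counts already hold such a correction, which the study's methods describe, is not known, and in that case these shares are corrected too far. The first 10 transcripts alone held 2.81% (PO2) to 22.0% (PO19) of the counts.

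**Figure D1:**
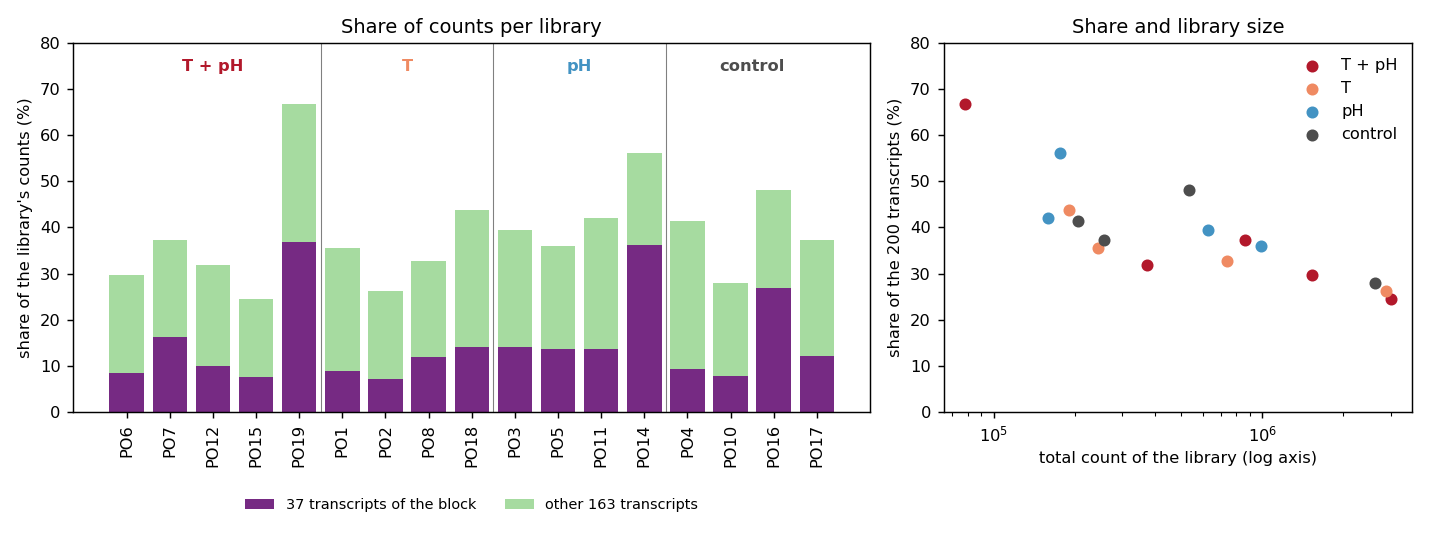
Left, share of each library's counts (%) held by the 200 transcripts, as stacked bars for a block of 37 transcripts linked by near-constant ratios and for the other 163, with libraries grouped as T + pH, T, pH and control. Right, the same total share against the library's total count on a log axis; the share was 66.9% in the smallest library and 24.5% in the largest, and the treatments overlapped.

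The 200 transcripts came from 169 Trinity genes, of which 142 had 1 transcript in the list, 23 had 2 and 4 had 3. The genes with 3 were DN69913_c0_g1 (ranks 8, 13 and 168), DN68547_c1_g2 (ranks 36, 37 and 38), DN72549_c0_g1 (ranks 87, 97 and 173) and DN74849_c1_g1 (ranks 128, 158 and 199). Among genes with 2, DN76909_c5_g1 ranked first, at 12 and 167. Of the transcripts, 39% had another tested isoform, against 41.5% of all tested transcripts. The listed transcripts held 97.9% of the counts of their own Trinity genes, so that the unlisted isoforms added little.

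Isoforms of 1 gene could carry the same counts. DN68547_c1_g2_i2 and DN68547_c1_g2_i7 had identical counts in every library, as did DN71347_c0_g1_i3 and DN71347_c0_g1_i4. These 4 transcripts were 2% of the list, against 11.3% of all tested transcripts that matched another one in every library. Transcripts with few counts can match another by their low counts alone, and no share at a like depth was computed. Levels of isoforms with identical counts are uncertain, and each pair is read as 1 measurement here. Whether the isoforms share their 3′ ends was not tested.

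Links by near-constant ratios also crossed Trinity genes. Transcripts were linked where the ratio of their levels varied by less than 1.5-fold over the 17 libraries, and chains of such links reduced the 200 transcripts to 137 groups. The largest group, called the block here, joined 37 transcripts of 31 Trinity genes, including 13 of the first 20 ranks. Its first transcript was DN72321_c0_g3_i2 (rank 3), and DN73940_c3_g2_i3 (rank 5) stood at 0.926 to 1.001 times its level in every library. DN80063_c0_g1_i1 (rank 7), DN69913_c0_g1_i1 (rank 8) and DN57609_c0_g1_i1 (rank 9), of 3 different Trinity genes, were likewise within 0.938 to 1.05 of each other's level, taking DN80063_c0_g1_i1 as the base. DN71030_c0_g1_i1 (rank 10) was also in the block. The links form chains, so not all of the 37 were at a near-constant ratio to each other: 9 met the limit directly with DN72321_c0_g3_i2, and the ratio to it varied over the libraries by 1.08- to 3.48-fold, with a median of 1.76-fold. With a limit of 1.25-fold the largest group held 18 transcripts of 16 Trinity genes, and with 2-fold 42 transcripts of 34. The block was found from the levels in all libraries, so its membership has no test, and whether its transcripts share sequence was not tested.

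DN72321_c0_g3_i2, the first of the block, had 5262, 10337, 7271, 4109.8 and 27476 CPM in T + pH. It had 6668, 3975, 8107 and 11304 CPM in T, and 10103, 8554, 10254 and 25348 CPM in pH. Control libraries had 7545, 4429, 16857 and 9210.5 CPM. PO19 of T + pH, PO14 of pH and PO16 of the control were the highest libraries of their treatments, while the treatments overlapped.

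The block as a whole took 36.8% of the counts in PO19 (T + pH), 36.2% in PO14 (pH) and 26.8% in PO16 (control), and 6.98% to 16.2% in the other 14 libraries. The 163 transcripts outside it took 17.1% to 32.1% in all 17 libraries, a narrower range. Relative to T, the fitted log2 fold changes of the 37 were 0.73 to 1.06 in T + pH and 0.65 to 1.35 in pH, with medians of 0.88 and 1.11. Without PO19 the median for T + pH against T was 0.07, and without PO14 that for pH against T was 0.46. None of the 37 was a DEG (defined below) in either comparison, and the smallest FDR was 0.563 for T + pH and 0.492 for pH.

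Grouping the transcripts by the correlation of their log2 levels over the 17 libraries (average linkage, 0.8 or higher) gave a first group of 38, which held the block and 1 further transcript. The second group, led by DN68784_c0_g1_i1, had 28 transcripts of 22 Trinity genes and the third, led by DN76797_c1_g2_i1, had 14 transcripts of 13. Both were lowest in PO19 and highest in PO12, which are libraries of the same treatment, T + pH. The second held 0.572% of the counts in PO19 and 3.95% in PO12, and the third 0.330% and 1.97%.

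**Figure D2:**
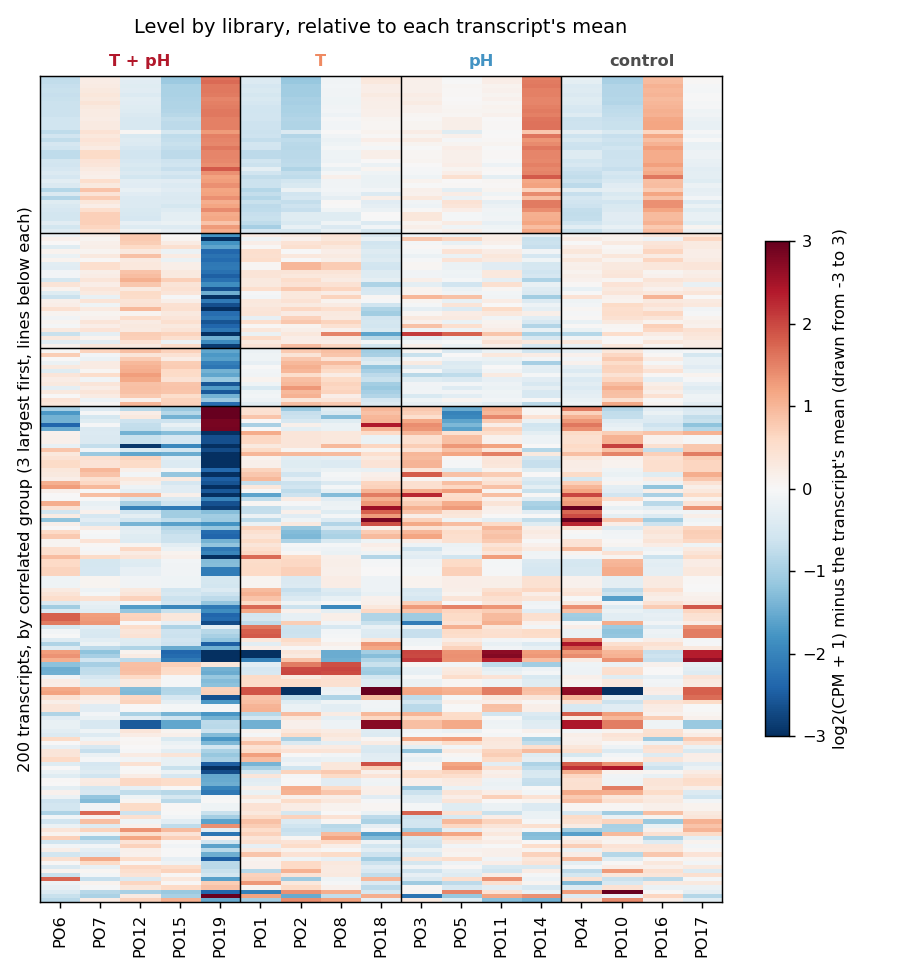
Level of each of the 200 transcripts (rows) in each library (columns, in the order T + pH, T, pH and control), as log2(CPM + 1) minus the transcript's mean over the 17 libraries. Rows are ordered by groups of correlated transcripts, the 3 largest (38, 28 and 14 transcripts) first; the first group holds the 37 transcripts of the block and is high in PO19, PO14 and PO16, while most other rows are low in PO19.

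Transcripts outside the block moved on their own or in small sets. DN71204_c4_g2_i2, the most abundant transcript of the control, had 4136, 6114, 4653, 3842 and 70589 CPM in T + pH. It had 11344, 3793, 6374 and 16555 CPM in T, 14387, 2942, 17507 and 8660.1 CPM in pH, and 24338, 4467, 6483 and 5895 CPM in the control. PO19 alone lay above the other 16 libraries, with 7.06% of its counts in this transcript, and 1 control library, PO4, gave 59.1% of the summed control CPM.

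DN76746_c0_g1_i1 (rank 2) had 7827, 6621, 1454, 1923 and 5784 CPM in T + pH and 13225, 18.8, 3161 and 31492 CPM in T. It had 7803, 7366, 10379 and 6657 CPM in pH, and 22585, 22.8, 4252 and 12343 CPM in the control. It was thus nearly lacking in PO2 (T) and PO10 (control), and its lowest level in the other 15 libraries was 63.7-fold above that in PO10. DN72332_c0_g1_i1 (rank 4), of another Trinity gene, followed it at 0.852 to 0.968 times its level in all 17 libraries. PO2 and PO10 were among the 3 libraries with most counts, and 4 of the 200 transcripts (2%) were lower in both than in every other library, against 0.0342% of all tested transcripts, while 12 (6%) were higher in both, against 2.27%. PO10 helped to choose the list, and a transcript without counts in another library cannot be lower in both. Nothing is therefore read from these shares.

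DN63922_c0_g1_i2 (rank 6) completed the first 10. It averaged 5026 ± 1958 CPM in T + pH (n = 5), 6153 ± 3136 CPM in T, 9065 ± 2458 CPM in pH and 7809 ± 2145 CPM in the control (SD, n = 4 each).

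**Figure D3:**
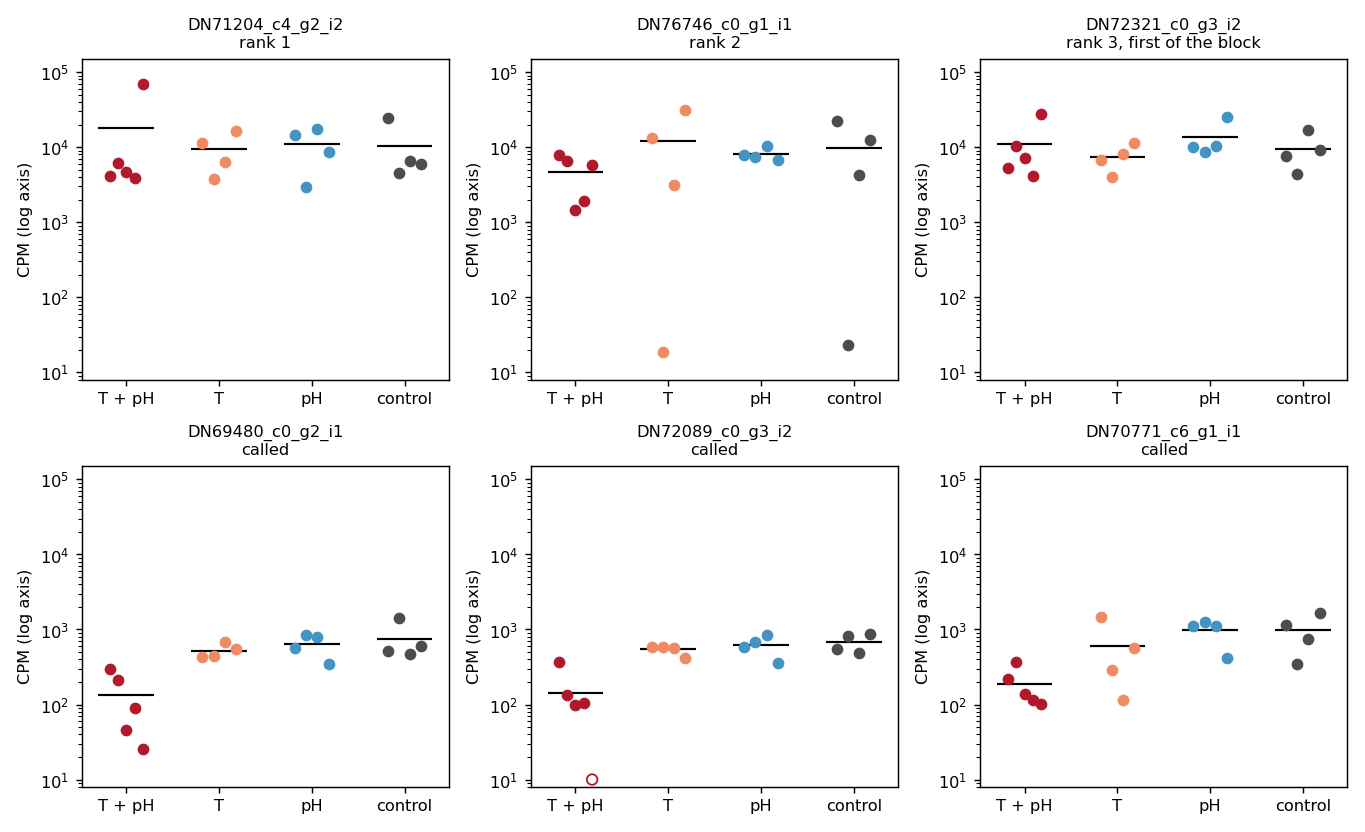
CPM on a log axis of the first 3 transcripts (top) and of the 3 transcripts that differed between T + pH and pH (bottom, marked as called), with 1 point per library and a horizontal line at the mean of T + pH, T, pH and control. The open point in the panel of DN72089_c0_g3_i2 is a count of 0 in PO19, drawn at 10 CPM; DN71204_c4_g2_i2 reaches 70589 CPM in the same library.

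The list itself depended on single libraries. Of the 200 transcripts, 104 were among the 200 most abundant of each of the 4 control libraries, and 16 of only 1 of them. Leaving out PO4, PO10, PO16 or PO17 and ranking again retained 187, 181, 184 and 187 transcripts, and ranking by the median retained 185. For 34 transcripts, 1 control library gave over 50% of the summed control CPM, namely PO4 for 16, PO16 for 12, PO17 for 5 and PO10 for 1.

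The 5 most uneven were DN69533_c0_g2_i1 (75.7% of the summed control CPM in PO4), DN71239_c0_g1_i2 (66.8% in PO10), DN72332_c1_g1_i3 (65.7% in PO4), DN70853_c0_g2_i2 (63.2% in PO4) and DN76107_c7_g1_i1 (61% in PO4). DN69533_c0_g2_i1 had 161, 296, 253, 221 and 179 CPM in T + pH and 221, 346, 282 and 2733 CPM in T. It had 612, 347, 300.1 and 226 CPM in pH, and 3689.8, 663, 182 and 342 CPM in the control. It was high in PO18 of T and PO4 of the control, and so were DN72332_c1_g1_i3 (6995 and 9501 CPM) and DN70853_c0_g2_i2 (1853 and 2326 CPM).

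Across treatments, 161 of the 200 were among the 200 most abundant transcripts of T + pH by mean CPM, 169 of T and 173 of pH. With libraries left out, the count for T + pH was 148 to 164. A list chosen by its control levels loses some transcripts in any other libraries, so these losses are not read as an effect of treatment. Of the first 100 ranks, 7 dropped out in T + pH, 2 in T and 2 in pH. The farthest to fall in T + pH was DN71239_c0_g1_i2, to rank 1657, which is among the most uneven in the control named above. Library by library, 58 transcripts were among the 200 most abundant of all 17 libraries, and a library shared between 92 (PO19) and 170 (PO16, control) of its own first 200 with the list. Fold changes between the highest and the lowest of the T + pH, T and pH means had a median of 1.65 and were below 2 for 125 of the 200 transcripts (62.5%), against 80.1% of the 800 transcripts next in rank. In the block 7 of 37 were below 2-fold.

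Pooled over the treatments, libraries of 1 treatment were about as alike as libraries of different treatments. Over the 200 transcripts, the median Spearman correlation of levels was 0.688 for 28 pairs of libraries within treatments and 0.685 for 108 pairs between treatments. Within single treatments the median was 0.728 in T + pH, 0.613 in T, 0.788 in pH and 0.571 in the control. The control libraries, which chose the list, are part of both pooled medians. These are correlations across transcripts, which are not independent and include isoforms of 1 gene. For 5 of the 17 libraries the most similar library came from the same treatment. PO12 and PO15, both T + pH, were the most similar pair of all (0.927).

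Variation between libraries exceeded counting error many times over. The coefficient of variation (CV) of CPM, scaled by the TMM method of edgeR, over the 13 libraries of T + pH, T and pH had a median of 0.479, of which counting error alone would give 0.0609. The median was 0.426 for the 800 transcripts next in rank and 1.19 for all tested transcripts, whose counting part was 1.15. Within the list, the block had a median CV of 0.868 and the other 163 transcripts 0.425, and 37 transcripts had a CV below 0.3, none of them in the block. By treatment, the median CV was 0.481 in T + pH, 0.358 in T, 0.343 in pH and 0.415 in the control. Without PO19 the median over the remaining 12 libraries was 0.427. Differences between the 3 treatment means accounted for a median of 15.5% of a transcript's sum of squares on the log2 scale, against 13.3% for the next 800 and 12.8% for all tested transcripts. Any split of 13 libraries into 3 sets takes part of the sum of squares, so these percentages do not measure an effect of treatment.

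The steadiest transcript was DN71473_c0_g3_i1 (rank 124), with a CV of 0.145. It had 909.7, 659.7, 903, 805 and 461 CPM in T + pH, 973, 873, 807 and 644 CPM in T, 706, 877, 900.4 and 858 CPM in pH, and 719, 1011, 1026 and 839 CPM in the control. Its levels overlapped in all treatments and stayed within 461 to 1026 CPM. DN72301_c0_g1_i1 (rank 53, CV 0.177), DN73125_c2_g1_i2 (rank 29, CV 0.202) and the pair DN71347_c0_g1_i3 and DN71347_c0_g1_i4 (ranks 170 and 171, CV 0.204 each) came next. DN72301_c0_g1_i1 averaged 1701 ± 454 CPM in T + pH (n = 5), 1929 ± 387 CPM in T, 1766 ± 163 CPM in pH and 2008 ± 341 CPM in the control (SD, n = 4 each).

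The least steady were DN76107_c8_g1_i1 (rank 195, CV 2.06), DN74772_c1_g3_i2 (rank 25, 1.92), DN71204_c4_g2_i2 (rank 1, 1.72), DN74772_c1_g3_i1 (rank 14, 1.69) and DN76107_c8_g2_i2 (rank 84, 1.57). Each had its highest level in PO19. DN74772_c1_g3_i1 had 1823, 5885, 6903, 3330.0 and 51086 CPM in T + pH, 8372, 3697, 4392 and 10995 CPM in T, 9824, 1500.0, 11998 and 6229 CPM in pH, and 9657, 3609.6, 5254 and 4508 CPM in the control. Apart from PO19 the treatments overlapped.

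**Figure D4:**
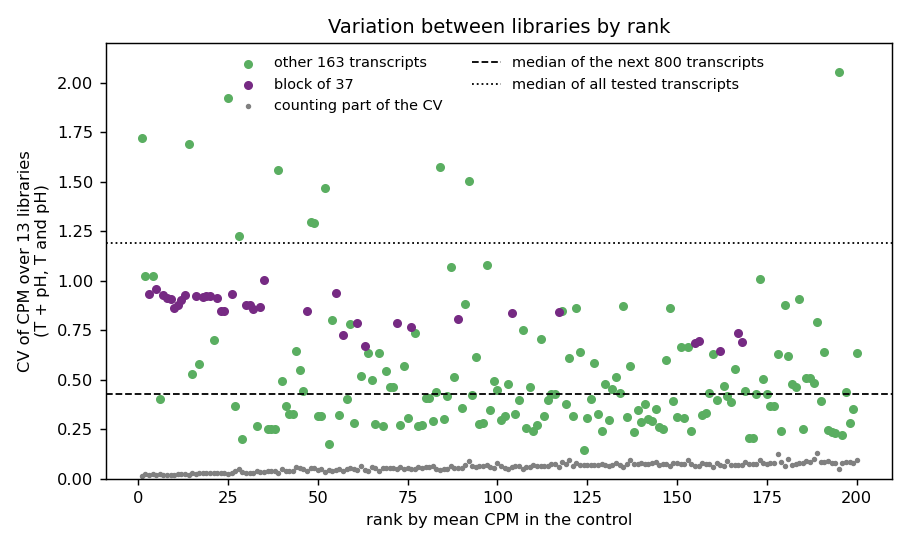
CV of TMM-scaled CPM over the 13 libraries of T + pH, T and pH for each of the 200 transcripts against its rank in the control, with the block in purple, the other 163 transcripts in green and the part due to counting in grey. The dashed line is the median of the next 800 transcripts (0.426) and the dotted line that of all tested transcripts (1.19); the block lies at 0.643 to 1.002.

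Of the 200 transcripts, 3 were lower in T + pH than in pH, and none was higher. These comparisons used edgeR's quasi-likelihood F-test on all tested transcripts, with Benjamini-Hochberg adjustment over all of them (FDR), and transcripts counted as differentially expressed (DEGs) at an FDR under 0.05 with a log2 fold change beyond 0.3 in either direction. The 3 transcripts were 1.5% of the list, against 0.492% of all tested transcripts (144 DEGs; 0.417% counting only those lower in T + pH) and 0.875% of the next 800 (7 DEGs). T + pH, T and pH libraries had no part in the ranking by control CPM. The transcripts left out beforehand were, however, named by the study partly from tests that included these libraries. They were not taken out of all tested transcripts, and only ferritin-3 among them would have entered the list. All 3 transcripts called here were also among 9 of the 200 that the study's own table of DEGs names, which was drawn up from these samples, and they are no independent evidence of direction.

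DN69480_c0_g2_i1 (rank 153), which has no protein name, had 297, 210.2, 45.7, 89.6 and 25.6 CPM in T + pH, against 574, 849, 800.3 and 349.8 CPM in pH. It had 425, 441, 679.7 and 545 CPM in T, and 519, 1424, 478 and 610.1 CPM in the control. Every T + pH library lay below every library of the other treatments. Its log2 fold change was -2.28 (SE 0.46, edgeR FDR 0.00848) for T + pH against pH and -1.87 (SE 0.46, edgeR FDR 0.0789) for T + pH against T.

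DN72089_c0_g3_i2 (rank 181) matches elongation factor Tu of a bacterium over a short stretch in the study's annotation. This factor carries aminoacyl-tRNA to the ribosome in bacteria, mitochondria and plastids. It had 367, 136, 99.5, 105 and 0 CPM in T + pH, against 591, 676, 844 and 361 CPM in pH. It had 593, 581, 573 and 419 CPM in T, and 553, 830.2, 489.7 and 863 CPM in the control. The count of 0 in PO19 allows up to 38.4 CPM (3 counts; counting error only). PO6 of T + pH lay just above PO14, the lowest pH library, on this scale, and the other T + pH libraries lay below all libraries of the other treatments. The log2 fold change was -2.16 (SE 0.45, edgeR FDR 0.0120) against pH and -1.85 (SE 0.45, edgeR FDR 0.0789) against T.

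DN70771_c6_g1_i1 (rank 118), without a protein name, had 218, 366, 139.8, 115 and 102 CPM in T + pH, against 1096, 1259, 1119 and 423 CPM in pH. It had 1479.9, 287, 116 and 560.2 CPM in T, and 1165, 342, 756 and 1640.0 CPM in the control. T + pH lay below pH in every library but overlapped with T and with the control. Its log2 fold change was -2.39 (SE 0.53, edgeR FDR 0.0267) against pH and -1.53 (SE 0.52, edgeR FDR 0.295) against T.

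These calls rested on few libraries. Without PO12 none of the 3 was called (FDR 0.0620 for DN69480_c0_g2_i1, 0.0726 for DN72089_c0_g3_i2 and 0.0699 for DN70771_c6_g1_i1), and without PO15 only DN69480_c0_g2_i1 was, whereas 6 of the 200 were called without PO6. DN70771_c6_g1_i1 was also not called without PO19 (FDR 0.180), without PO3 (FDR 0.0901), with RLE size factors (FDR 0.103) or under 3 other settings, and without PO19 its log2 fold change was -2.30. In each of these fits the log2 fold changes of the 3 transcripts were negative.

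**Figure D5:**
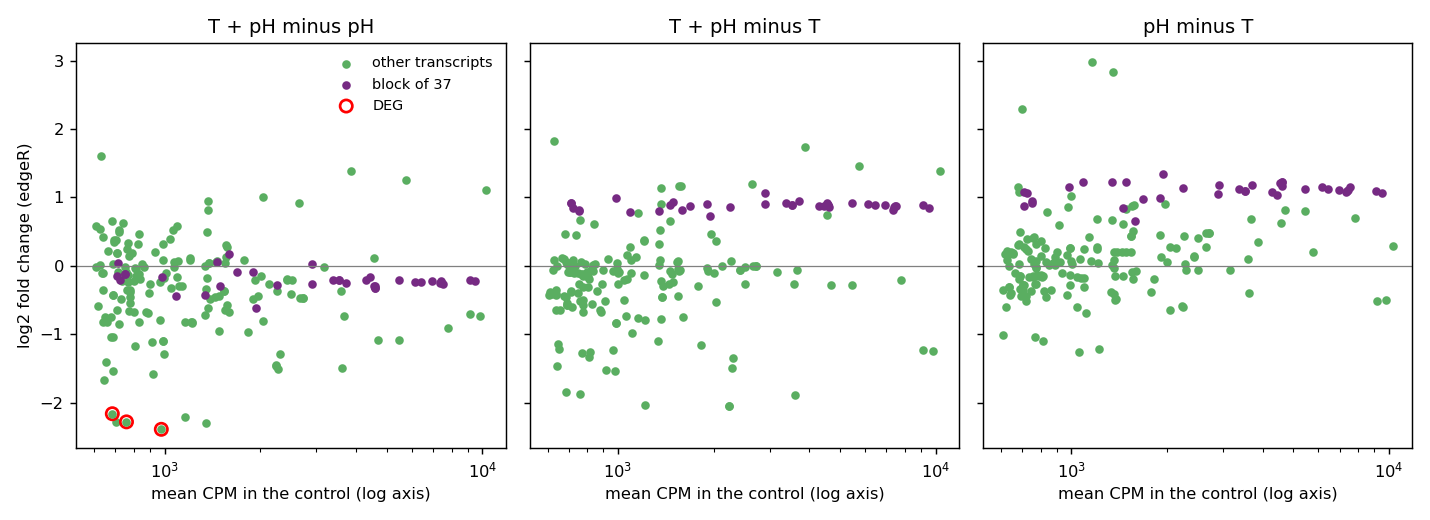
Fitted log2 fold change of each of the 200 transcripts against its mean CPM in the control on a log axis, for T + pH minus pH, T + pH minus T and pH minus T. Purple points are the block, green points the other transcripts, and red rings the 3 DEGs, which lie between -2.39 and -2.16 in the first panel; no transcript is ringed in the other panels.

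No transcript of the list was a DEG between T + pH and T or between pH and T, where 0.102% and 0.0171% of all tested transcripts were, and 0.75% and 0% of the next 800. With edgeR, 23 and 10 of the 200 had an unadjusted p below 0.05 in these comparisons (11.5% and 5.0%, against 8.86% and 8.71% of all tested), and DESeq2 called 3 and 2. The test across T + pH, T and pH together called the same 3 transcripts as T + pH against pH, 1.5% of the list against 0.888% of all tested and 1.125% of the next 800. No transcript had a DEG-level interaction of temperature and pH in edgeR (4 at an unadjusted p below 0.05, smallest FDR 0.783), and no other tool was run for it.

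Transcripts whose libraries did not overlap were also counted. TMM-scaled CPM were lower in every T + pH library than in every pH library for 15 of the 200 (7.5%), against 0.851% of all tested transcripts and 2.5% of the next 800, and were higher for none (0.564% of all tested). Some of the 15 overlap in unscaled CPM, DN72089_c0_g3_i2 and DN76537_c0_g1_i1 among them, and no count was made on that scale. For T + pH against T, 6 were lower throughout (3.0%, against 0.656% of all tested and 2.38% of the next 800). For pH against T, 4 were higher throughout (2.0%, against 0.912% of all tested and 1.0% of the next 800). The next 800 are the nearer comparison in depth, with a median counting part of the CV of 0.125, against 1.15 for all tested transcripts.

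Of the 4 transcripts that were higher in every pH library than in every T library, 3 were the isoforms of DN72549_c0_g1, and the other was DN69913_c0_g1_i9 of the block. DN72549_c0_g1_i7 had 2151, 1364, 3439 and 1269 CPM in pH, against 61.3, 685, 189 and 262 CPM in T. It had 1273, 229, 569.9, 101 and 38.4 CPM in T + pH and 1282, 1068, 330.2 and 2728 CPM in the control. Its log2 fold change for pH against T was 2.83 (edgeR FDR 0.379), and that of DN72549_c0_g1_i10 was 2.98 (edgeR FDR 0.377), the largest of the list. Neither passed the threshold. The same 3 isoforms were also among the 15 whose TMM-scaled CPM were lower in every T + pH library than in every pH library. In the unscaled CPM given here for DN72549_c0_g1_i7, PO6 of T + pH (1273) lay just above PO14 of pH (1269).

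The median log2 fold change of the 200 transcripts was -0.23 for T + pH against pH, beside 0.08 for all tested transcripts and -0.05 for the next 800. It was -0.07 for T + pH against T (all tested 0.01, next 800 -0.12) and 0.18 for pH against T (all tested -0.05, next 800 -0.09). The list thus lay above the next 800 for T + pH against T, but only through the block. The median was 0.88 in the block and -0.13 outside it, close to the next 800. With library totals in place of TMM, the median of all tested transcripts shifted to 0.23 for T + pH against pH and to -0.20 for pH against T, and the medians of the list were -0.23 and 0.01. With 1 library left out at a time, the median of the list for T + pH against pH ranged between -0.42 (without PO19, all tested 0.17) and -0.05 (without PO14, all tested 0.07), and it lay below that of all tested transcripts by 0.12 to 0.60. For T + pH against T it was 0.012 without PO19, where that of all tested transcripts was 0.09 and that of the next 800 was 0.004. Over all such fits it lay 0.05 to 0.23 below all tested, while for pH against T it lay 0.09 to 0.35 above. Within 1 log2 unit lay 171 of the 200 for T + pH against pH, 170 for T + pH against T and 159 for pH against T.

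Comparisons with the control used the libraries that chose the list, and nothing is read from their counts. They also share those 4 libraries with each other. In T + pH against the control 7 transcripts were DEGs, all lower in T + pH (3.5% of the list, beside 0.509% of all tested, 0.383% counting only those lower, and 1.25% of the next 800). None was a DEG in T or in pH against the control in edgeR, as for all tested transcripts (0%), with 4 and 3 at an unadjusted p below 0.05 and none by DESeq2. The median log2 fold change of the list against the control was -0.23 in T + pH, -0.25 in T and -0.02 in pH, beside 0.01, -0.01 and -0.06 for all tested transcripts and -0.21, -0.10 and -0.16 for the next 800. Without the control library PO16 it was -0.14, -0.04 and 0.03, beside 0, -0.02 and -0.07 for all tested. With any 1 library left out, the list lay 0.14 to 0.60 below all tested in T + pH and 0.02 to 0.53 below in T, and between 0.13 below and 0.16 above in pH.

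The 7 were among the same 9 transcripts of the study's table. The 3 transcripts above had log2 fold changes of -2.47 (DN69480_c0_g2_i1, edgeR FDR 0.00368), -2.26 (DN72089_c0_g3_i2, edgeR FDR 0.00875) and -2.33 (DN70771_c6_g1_i1, edgeR FDR 0.0353) against the control. DN76246_c1_g3_i3 (rank 137) and DN73046_c0_g2_i1 (rank 44), neither with a protein name, had -1.91 each (edgeR FDR 0.0239 and 0.0361). DN70771_c6_g1_i1 was not called against the control without PO19 (-2.26, FDR 0.152), nor without PO4, PO12, PO15 or PO17. DN72089_c0_g3_i2 was not called without PO12 or PO15, DN76246_c1_g3_i3 without PO4, PO12 or PO15, and DN73046_c0_g2_i1 without PO4, PO10, PO12, PO15 or PO19. DN69480_c0_g2_i1 was called with any 1 library left out (FDR at most 0.0419). Under 10 settings other than leaving out libraries, DN70771_c6_g1_i1 and DN73046_c0_g2_i1 were each not called in 4. DN69480_c0_g2_i1, DN72089_c0_g3_i2 and DN76246_c1_g3_i3 were called in all of these.

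DN76537_c0_g1_i1 (rank 45) matches a cytosolic alpha-glucan phosphorylase, an enzyme that releases glucose phosphate from starch. It had 1427, 974, 481, 537 and 64.0 CPM in T + pH and 2788, 1665, 1608 and 1969 CPM in T. It had 2604, 1796, 1882 and 1066 CPM in pH, and 1918, 2181, 2334 and 2678 CPM in the control. T + pH libraries lay below all T and control libraries, and PO6 overlapped with PO14 of pH on this scale. The log2 fold change of T + pH was -1.78 (SE 0.45, edgeR FDR 0.0460) against the control, -1.52 (SE 0.45, edgeR FDR 0.104) against pH and -1.49 (SE 0.45, edgeR FDR 0.196) against T. The call against the control was lost without PO4, PO10, PO11, PO12, PO15, PO16 or PO17, each left out alone (FDR up to 0.204). It was also lost under 4 of the 10 settings other than leaving out libraries.

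DN75969_c0_g1_i1 (rank 120) matches palA/RIM20, a protein of ambient pH signalling known from fungi. It had 227, 376, 323, 277 and 76.8 CPM in T + pH, 339, 559, 469 and 1047 CPM in T, 387, 582, 363 and 322 CPM in pH, and 2272, 596, 579.8 and 416 CPM in the control. On this scale T + pH overlapped with T and with pH and lay below the control, where PO4 gave 58.8% of the summed CPM. With TMM scaling, T + pH and control libraries overlapped. The log2 fold change of T + pH was -1.98 (SE 0.46, edgeR FDR 0.0317) against the control and -0.80 (SE 0.45, edgeR FDR 0.578) against pH. Without PO4 it was -1.10 against the control and not called (edgeR FDR 0.324), and the call was also lost without PO12, PO15 or PO19. Of the 10 settings other than leaving out libraries, 3 lost it too.

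DN76582_c0_g1_i1 (rank 188) matches BASS1, a probable sodium/metabolite cotransporter of the plastid described in plants. It had 432, 283, 239, 222 and 89.6 CPM in T + pH, 347, 821, 699 and 450.3 CPM in T, 254, 516, 456 and 378 CPM in pH, and 854, 851, 582 and 299 CPM in the control. All treatments overlapped, and its log2 fold change of -1.41 for T + pH against the control did not pass the threshold (SE 0.42, edgeR FDR 0.0932). Neither did that of DN71239_c0_g1_i2 (rank 189, no protein name), at -2.67 (SE 0.68, edgeR FDR 0.0870), where PO10 alone had 1722 CPM and the other control libraries had 167 to 481 CPM.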

How the data were processed

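CEL-Seq2 libraries of *P. onkodes* (17) were analysed, and 2 others named in the labels were not analysed here. The authors mapped reads with bowtie2 to a Trinity transcriptome and deposited counts of UMIs per transcript, without normalization. The length of the UMIs is not given in the sources used here. Counts were divided by library totals for CPM. Transcripts whose counts summed to 5 or more were scaled by TMM and tested with edgeR 4.0.16 (R 4.3.3, limma 3.58.1, quasi-likelihood F-test, robust, the 4 treatments in 1 model). DEGs were called at an FDR under 0.05 with a log2 fold change beyond 0.3 in either direction. The SE is the absolute log2 fold change divided by the square root of F. DESeq2 1.42.0 and the other alternatives are given in the closing section. Ratios used a pseudocount of 1 CPM. Replicates are separate fragments as far as the labels tell; libraries of 1 treatment differed by more than sampling noise, so none was counted as a copy. The tests were checked on simulated data. Fold changes and p-values of the authors' own comparisons were not used. Named transcripts were the first 10, DEGs, the steadiest and least steady 5, the genes with most transcripts, those nearest the threshold, the 5 most uneven in the control and those in the study's table of DEGs. The transcripts, their naming rule and the alternatives were chosen with earlier results of these data known. DN72549_c0_g1_i7 and the direction of the block were described after their values were seen.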

Additional observations from a re-analysis of the deposited data

Results flagged for a closer look

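Each of 64 sets of 4 or 5 libraries of 1 treatment was screened for a library far from the others by Dixon's criterion at 95%, for 4 shares of counts and 12 transcripts. Chance flags about 1 in 20 such sets, and 11 values were marked. The marked transcripts had been named for their values in these libraries, so the 11 are not read against that rate.

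PO19 (T + pH) shared 92 of its own first 200 transcripts with the list, against 138 in the nearest T + pH library. It also stood apart for DN71204_c4_g2_i2 (70589 CPM, nearest 6114 CPM) and DN72321_c0_g3_i2 (27476 CPM, nearest 10337 CPM). PO14 (pH) stood apart in the share of the block, with 36.2% against 14.05% in the nearest pH library, and for DN72321_c0_g3_i2, with 25348 CPM against 10254 CPM.

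In the control, PO4 was high for DN71204_c4_g2_i2 (24338 CPM), DN75969_c0_g1_i1 (2272 CPM) and DN76246_c1_g3_i3 (1509.9 CPM), and PO10 was high for DN69480_c0_g2_i1 (1424 CPM). In T, PO18 was low for DN72089_c0_g3_i2 (419 CPM, nearest 573 CPM) and high for DN76246_c1_g3_i3 (937 CPM, nearest 486 CPM).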

How the results depend on the processing

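The direction of the log2 fold changes of the DEGs named in the report was the same under all alternatives, which were 28 fits beside the first. These fits reuse the same counts, and those against the control reuse the libraries that chose the list. The shared direction is therefore no further evidence. For T + pH against pH, the count of DEGs among the 200 transcripts was 3, and it was 9 with DESeq2, 8 with no filter, 7 with only the compared libraries in the fit and 0 among the first 100 ranks. For T + pH against T it was 0, and it was 3 with DESeq2, 2 with RLE size factors, 2 with no filter and 1 in the list ranked by the median. For pH against T it was 0, and it was 2 with DESeq2, 3 with no filter and 3 with only the compared libraries. For T + pH against the control it was 7, and it was 14 with DESeq2, 4 with RLE, 3 with at least 5 counts in at least 4 libraries, 3 with isoforms summed, 14 with no filter, 16 with only the compared libraries and 2 among the first 100 ranks. For T against the control it was 0, and it was 2 with no filter and 3 with only the compared libraries. Across T + pH, T and pH it was 3, and it was 9 with DESeq2, 9 with no filter, 6 without robust estimation and 0 among the first 100 ranks.

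Leaving out 1 library gave 0 to 6 DEGs for T + pH against pH (0 without PO12, 1 without PO15, 6 without PO6), 0 to 2 for T + pH against T (2 without PO6, 1 without PO7), 1 to 9 for T + pH against the control (1 without PO12 or PO15, 4 without PO19, 2 without PO4) and 0 to 7 across the 3 treatments (0 without PO12, 1 without PO15, 7 without PO6). The other comparisons stayed at 0. No paired analysis was possible because the library numbers of *P. onkodes* are shared by no 2 treatments.

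With the first 100 ranks the median share in T was 25.5%, 84, 89 and 92 of 100 were among the first 100 of T + pH, T and pH, and 86 Trinity genes were present. The median CV was 0.427 to 0.495 with 1 of the 13 libraries left out, and lowest without PO19. Correcting for shared UMIs and leaving out both PO2 and PO10 were chosen after seeing the data, as were leaving out PO19 or PO2 from shares and ranks, each library in turn from the median log2 fold changes, and the tighter and looser limits on ratios; the first 2 gave 3 DEGs for T + pH against pH. Depth limits PO19 most, where 1 count was worth more than in any other library.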
